A study of Mus musculus with 20 samples.

Results

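The circadian clock genes described here were 10 genes fixed by name, with earlier results of these data known: Arntl, Clock, Npas2, Per1, Per2, Per3, Cry1, Nr1d1, Nr1d2 and Dbp. Each had 1 entry among the 54532 gene entries of the deposited table, and all 10 were among the 14059 genes that passed the filter of at least 0.5 FPKM (fragments normalised to transcript length and library size) in at least 5 of 20 libraries. The series sequenced polyadenylated RNA from whole mouse liver, and its title asks how loss of STING affects gene expression in cholestasis. STING, encoded by Tmem173, is an innate immune adaptor that signals the presence of cytosolic DNA. Bile duct ligation (BDL) blocks bile flow and injures the liver.

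There were 4 groups of 5 libraries. BDL_KO livers came from STING knockout mice 7 days after ligation, and BDL_Wt livers came from wild-type mice with the same ligation. Sham_KO and Sham_Wt livers came from STING knockout and wild-type mice after sham surgery. Libraries are named by group and by the number in their title, such as Sham_KO_2347, and the meaning of that number is not given. The strain, the age, the sex, the deleted part of Tmem173 and the cells in which it is deleted are not given in the sources used here. Nor is the time of day at which livers were taken, so for every clock gene a difference in sampling time cannot be told apart from genotype or surgery. No source says whether each library is its own animal, and p-values here set a difference only against the spread of libraries within groups. Abcb4-deficient mice, which the series design also names, are not analysed here.

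In the mammalian clock, ARNTL (also called BMAL1) pairs with CLOCK or NPAS2 and activates genes that carry E-boxes, among them the Per, Cry, Nr1d and Dbp genes. PER and CRY proteins return to the nucleus and repress that activity, while the nuclear receptors NR1D1 and NR1D2 (REV-ERBs) repress Arntl, Clock, Npas2 and Cry1 through ROR elements. In mouse liver this gives a daily cycle in which Arntl, Clock and Npas2 transcripts run roughly opposite to those of Nr1d1, Dbp and Per3, and DBP, a D-box-binding factor, carries the rhythm to metabolic genes.

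The depth was 14.9 to 20.9 M assigned fragments per library, recovered from the FPKM values. Tmem173, the targeted gene, had 0.638, 0.840, 1.38, 2.57 and 1.66 FPKM in BDL_KO livers, against 2.89, 2.60, 4.60, 3.91 and 4.20 FPKM in BDL_Wt livers. It had 1.06, 0.617, 0.588, 0.718 and 0.730 FPKM in Sham_KO livers, against 1.87, 0.843, 1.79, 1.69 and 2.34 FPKM in Sham_Wt livers. Knockout libraries were lower in both pairs, without overlap in the ligated livers (log2 difference -1.17 ± 0.24 SE, limma adjusted p = 0.00444) and with overlap in the sham livers (-0.80 ± 0.24, adjusted p = 0.0779). All 8 hepatocyte markers passed the filter, with summed levels of 31050 to 61660 FPKM in BDL_KO livers and 46190 to 64430 FPKM in Sham_Wt livers. BDL_KO_2359 and BDL_KO_2248 stood apart within their group. Their summed levels of 6 cholangiocyte markers were 82.99 and 62.97 FPKM, against 332.1 to 560.6 FPKM in the other 3 BDL_KO libraries and 223 to 610.1 FPKM in BDL_Wt livers. Their hepatocyte sums were 46430 and 61660 FPKM, against 31050 to 34620 FPKM in the other 3. The comparisons of BDL_KO with BDL_Wt and with Sham_KO livers, and of the ligation effect between genotypes, were therefore also run without these libraries. The comparison of library types in ligated livers, given further below, was not run without both. BDL_KO_2371 stood apart in a list of adipose, pancreas and blood markers, with a sum of 1127 FPKM, against 142.1 to 222.9 FPKM in the other BDL_KO libraries and 48.19 to 274.4 FPKM in BDL_Wt livers. Libraries of each group were of both kinds by their sex-linked transcripts. Xist-carrying libraries numbered 3 in BDL_KO, 2 in BDL_Wt, 2 in Sham_KO and 3 in Sham_Wt, and the other libraries carried Y-linked transcripts.

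Promoter sequence was available for 9 of the 10 genes, in 13 RefSeq windows of 250 bases before to 50 bases after an annotated start (build GRCm38.p6). The windows were searched on both strands for the E-box CACGTG, the E-prime box CACGTT, the D-box TTATGTAA and the ROR element core TAGGTCA, none of which contains another. Of 32851 windows over all genes, 7.15% held the E-box, 4.68% the E-prime box, 0.938% the D-box and 2.61% the ROR core. The 4 windows printed here are those of a D-box target, of the main activator and of repressors whose motifs stand for the arms of the loop, with the matched letters in capitals. Per3 (chr4:151044616-151044915, minus strand) held D-boxes that begin at -205 and -158 relative to its start, counted as +1, and only 7 of all windows, 0.0213%, held at least 2 D-boxes. Arntl (chr7:113207261-113207560, plus strand) held the ROR core at +31. Cry1 (chr10:85185005-85185304, minus strand) held an E-box at -60 and the E-prime box, read from the other strand, at -79. Per1 (chr11:69098699-69098998, plus strand) held an E-box at -166. An E-prime box, also on the other strand, stood at -28 of the Nr1d1 start, and the windows of the other genes held none of these letters. Arntl and Per1 each had another window, not printed, which held none of them either. A match describes the letters in the window and not a bound site.
Per3: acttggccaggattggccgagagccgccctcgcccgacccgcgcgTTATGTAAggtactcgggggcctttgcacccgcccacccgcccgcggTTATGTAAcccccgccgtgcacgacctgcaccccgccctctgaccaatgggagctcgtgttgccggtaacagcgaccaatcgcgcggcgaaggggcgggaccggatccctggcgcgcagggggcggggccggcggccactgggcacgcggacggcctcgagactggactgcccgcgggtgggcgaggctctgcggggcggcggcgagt
Arntl: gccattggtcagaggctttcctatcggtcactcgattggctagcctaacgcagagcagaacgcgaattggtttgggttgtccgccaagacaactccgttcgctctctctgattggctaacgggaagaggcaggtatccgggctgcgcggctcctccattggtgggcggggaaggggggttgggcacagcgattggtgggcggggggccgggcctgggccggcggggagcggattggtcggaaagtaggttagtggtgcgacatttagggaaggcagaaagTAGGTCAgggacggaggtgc
Cry1: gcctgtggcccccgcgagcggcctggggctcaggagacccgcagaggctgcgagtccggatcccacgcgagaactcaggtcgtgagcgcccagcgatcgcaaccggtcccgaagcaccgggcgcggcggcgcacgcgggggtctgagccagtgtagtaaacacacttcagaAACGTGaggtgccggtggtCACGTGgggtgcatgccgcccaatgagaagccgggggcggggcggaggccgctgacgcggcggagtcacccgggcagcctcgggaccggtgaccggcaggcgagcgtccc
Per1: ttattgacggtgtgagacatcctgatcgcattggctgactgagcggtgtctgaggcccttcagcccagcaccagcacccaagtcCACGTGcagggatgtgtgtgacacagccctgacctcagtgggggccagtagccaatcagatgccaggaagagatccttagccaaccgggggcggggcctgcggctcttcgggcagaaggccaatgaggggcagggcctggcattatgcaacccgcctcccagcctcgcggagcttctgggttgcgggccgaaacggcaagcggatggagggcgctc

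In sham-operated livers, knockout libraries had more Cry1 and Clock transcript and less Nr1d2 transcript than wild-type libraries. The groups did not overlap for 6 of the 10 genes, with Arntl and Cry1 higher and Per3, Nr1d1, Nr1d2 and Dbp lower in Sham_KO, where 8.07% of all tested genes did not overlap. The fit over all 4 groups called 3 of the 10 at an adjusted p under 0.05 (Cry1 and Clock higher, Nr1d2 lower), where 2.97% of all tested genes were called. The median log2 difference of the 10 was 0.16, against 0.01 over all tested genes, with members in both directions.

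Nr1d2 encodes the second REV-ERB repressor. It had 4.54, 3.89, 4.76, 2.60 and 2.80 FPKM in Sham_KO livers, against 9.64, 17.6, 13.4, 11.7 and 13.5 FPKM in Sham_Wt livers. Every Sham_KO library lay below every Sham_Wt library, and the log2 difference was -1.70 ± 0.33 (limma, Benjamini-Hochberg adjusted p = 0.00949). The call held in all 19 other settings of this comparison, with adjusted p from 0.000844 to 0.0312. Nr1d1, the other REV-ERB, had 9.24, 3.35, 4.21, 2.31 and 2.51 FPKM in Sham_KO livers, against 19.7, 30.7, 21.3, 11.7 and 16.8 FPKM in Sham_Wt livers. Its groups were also separate, with Sham_KO_2347 the highest of the knockouts. The log2 difference of -2.19 ± 0.63 was larger than that of Nr1d2, but its spread was wider and the adjusted p was 0.0687. Nr1d1 shares 263 exonic bases, 8.55% of its length, with Thra on the other strand, and whether counting used the strand is not given.

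Cry1, the partner of the PER proteins in repression, had 9.75, 9.72, 6.01, 13.5 and 12.4 FPKM in Sham_KO livers, against 5.59, 3.01, 3.05, 3.04 and 1.93 FPKM in Sham_Wt livers. The lowest Sham_KO library was just above the highest Sham_Wt library. The log2 difference was 1.51 ± 0.35 (limma adjusted p = 0.0239). Leaving out Sham_Wt_2227, Sham_Wt_2228, Sham_Wt_2229, Sham_KO_2352 or Sham_KO_2353 moved the adjusted p to between 0.0556 and 0.0704.

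Arntl had 4.81, 4.19, 4.77, 3.82 and 5.18 FPKM in Sham_KO livers, against 3.53, 2.17, 1.62, 2.81 and 1.46 FPKM in Sham_Wt livers. The groups did not overlap, but the log2 difference of 0.89 ± 0.26 did not pass the test (limma adjusted p = 0.0710). Clock, which encodes the partner of ARNTL, had 4.78, 6.37, 5.82, 5.42 and 5.61 FPKM in Sham_KO livers, against 4.46, 4.91, 3.78, 4.16 and 3.06 FPKM in Sham_Wt livers. Only Sham_KO_2347 fell within the wild-type range. The difference was small and even, 0.42 ± 0.11 (adjusted p = 0.0385), and it missed the threshold without any of 7 libraries: Sham_Wt_2227, Sham_Wt_2228, Sham_Wt_2229, Sham_KO_2349, Sham_KO_2350, Sham_KO_2352 or Sham_KO_2353 (adjusted p from 0.0650 to 0.102). Npas2, which can take the place of CLOCK, had 2.68, 3.51, 1.91, 3.98 and 3.62 FPKM in Sham_KO livers, against 2.52, 0.643, 0.883, 1.30 and 0.5003 FPKM in Sham_Wt livers. Sham_Wt_2223 reached the knockout range, and the log2 difference of 1.21 ± 0.41 had an adjusted p of 0.118.

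Dbp had 0.313, 0.119, 0.0647, 0.488 and 0.208 FPKM in Sham_KO livers, against 1.96, 8.81, 2.67, 0.798 and 2.52 FPKM in Sham_Wt livers. Every knockout library was below every wild-type library, at 3 to 23 fragments each. The log2 difference on this scale, -2.10 ± 0.70 (limma adjusted p = 0.118), understates the change of so low a gene. Dbp shares 539 exonic bases, 18.0% of its length, with Sphk2 on the other strand. Per3, a period gene that is dispensable for the core rhythm in mouse, had 0.195, 0.1996, 0.161, 0.503 and 0.330 FPKM in Sham_KO livers, against 0.510, 0.948, 0.608, 0.559 and 0.728 FPKM in Sham_Wt livers. The groups were separate by a narrow margin, and the log2 difference was -0.60 ± 0.42 (adjusted p = 0.506).

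Per1 and Per2, the period genes that also respond to signals from outside the clock, did not follow this division. Per1 had 1.99, 1.36, 2.39, 8.48 and 8.40 FPKM in Sham_KO livers, against 1.14, 2.59, 5.43, 5.95 and 7.30 FPKM in Sham_Wt livers. Per2 had 1.44, 1.14, 1.91, 2.96 and 3.37 FPKM in Sham_KO livers, against 1.44, 1.497, 0.936, 0.989 and 1.47 FPKM in Sham_Wt livers. Per1 overlapped widely, with a log2 difference of -0.10 ± 0.49 (limma adjusted p = 0.951). Per2 overlapped in part, with Sham_KO_2350, Sham_KO_2352 and Sham_KO_2353 above every Sham_Wt library (0.53 ± 0.33, adjusted p = 0.426).

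The fit over all 4 groups pools each gene's spread, so ligated libraries also enter the standard errors of the sham comparison. With the 10 sham libraries alone in the fit, 7 of the 10 genes were called, where 5.84% of all tested genes were. Those were Arntl (adjusted p = 0.0220), Npas2 (0.0371) and Cry1 higher and Nr1d1 (0.0071), Nr1d2, Dbp (0.0208) and Per3 (0.0425) lower, while Clock missed the threshold (0.0591). Nr1d1 also passed with library type, Xist-carrying or Y-carrying, as a covariate (adjusted p = 0.0219), and Arntl without Sham_Wt_2223 (0.0445). With values rescaled to TPM, FPKM divided by its sum in the library, 0 were higher and 1 lower, in place of 2 higher and 1 lower. That scaling moved the median of all genes in this comparison by -0.11, and Cry1 then had an adjusted p of 0.0547 and Clock of 0.360. Without a filter on low values the adjusted p was 0.0554 for Cry1 and 0.0800 for Clock. Limma called 0 of the 46 markers tested in 10 lists of liver and other cell types between Sham_KO and Sham_Wt livers, where 2.97% of all tested genes were called. That count does not show that the groups held the same cells. An unadjusted p under 0.05 was reached by 6 of the 46, a count whose share over all tested genes is not given here. Of those, Hba-a1, a haemoglobin gene of red cells (1.03 ± 0.48, limma adjusted p = 0.277), and Jchain, a plasma cell gene (0.79 ± 0.27, adjusted p = 0.122), did not overlap between the groups. Over all tested genes, 8.07% did not overlap in this comparison. The adipose, pancreas and blood markers summed to 112.9 to 224.7 FPKM in Sham_KO livers, against 75.46 to 113 FPKM in Sham_Wt livers, and their part in the clock results was not tested.

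**Figure D1:**
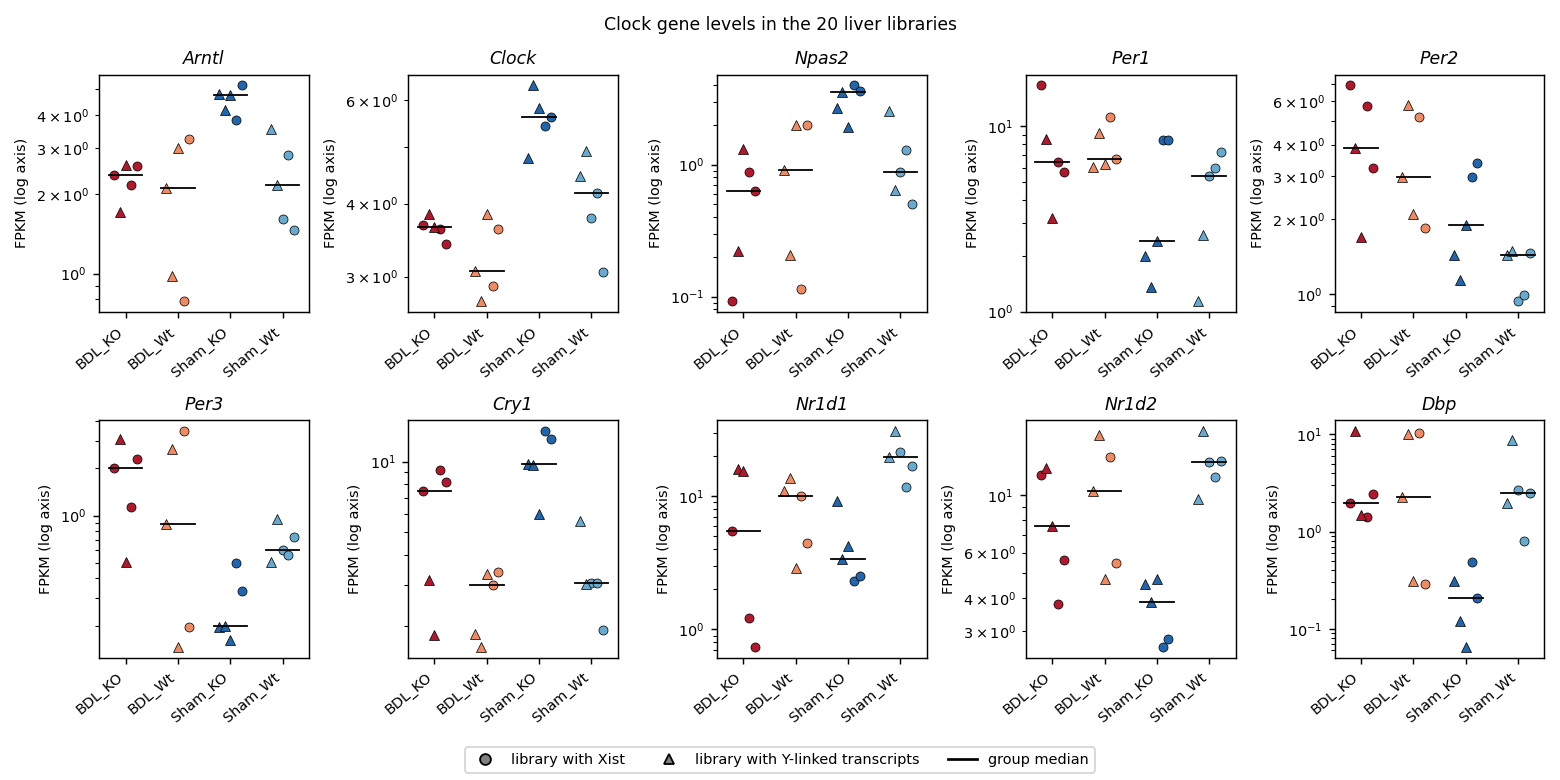
Levels of the 10 clock genes in FPKM on log axes, 1 point per library, in BDL_KO, BDL_Wt, Sham_KO and Sham_Wt livers (5 each). Circles are libraries with Xist, triangles are libraries with Y-linked transcripts, and bars are group medians. Sham_KO points lie above all Sham_Wt points for Arntl and Cry1 and below them for Per3, Nr1d1, Nr1d2 and Dbp.

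Arntl, Clock and Npas2 fell and Per3, Dbp and Nr1d2 rose in BDL_KO livers relative to Sham_KO livers, 6 of the 10 genes, where 25.1% of all tested genes were called. The groups did not overlap for Per3 and Dbp (higher) and for Arntl, Clock and Npas2 (lower), 5 genes, where 11.6% of all tested genes did not overlap. The median log2 difference of the 10 was 0.52, against -0.01 over all tested genes. The Sham_KO libraries are the same as in the comparison of sham livers, so the directions of these comparisons are tied.

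Clock had 3.68, 3.84, 3.65, 3.62 and 3.41 FPKM in BDL_KO livers and Sham_KO values, given above, from 4.78 to 6.37 FPKM. On the log2 scale its 5 BDL_KO libraries had the smallest SD of any clock gene in any group (0.0538), and all lay below Sham_KO (log2 difference -0.55 ± 0.11, limma adjusted p = 0.00117). Arntl had 2.36, 1.72, 2.59, 2.18 and 2.56 FPKM in BDL_KO livers, against 3.82 to 5.18 FPKM in Sham_KO livers. No library crossed, and the difference was -0.86 ± 0.26 (adjusted p = 0.0199). Npas2 had 0.0920, 0.223, 1.30, 0.880 and 0.634 FPKM in BDL_KO livers, against 1.91 to 3.98 FPKM in Sham_KO livers. Its lowest value, in BDL_KO_2248, rested on 6 fragments. All 5 ligated libraries were lower, with a log2 difference of -1.78 ± 0.41 (adjusted p = 0.00405).

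Per3 had 2.02, 3.06, 0.510, 1.13 and 2.28 FPKM in BDL_KO livers, against 0.161 to 0.503 FPKM in Sham_KO livers. The lowest BDL_KO library, BDL_KO_2365, stood barely above the highest Sham_KO library (log2 difference 1.45 ± 0.42, limma adjusted p = 0.0178). Dbp had 1.96, 10.8, 1.49, 1.41 and 2.42 FPKM in BDL_KO livers, against 0.0647 to 0.488 FPKM in Sham_KO livers. BDL_KO_2359 was far above the other 4, and the groups were separate (2.12 ± 0.70, adjusted p = 0.0336). Nr1d2 had 11.9, 12.7, 7.57, 3.81 and 5.61 FPKM in BDL_KO livers, against 2.60 to 4.76 FPKM in Sham_KO livers. BDL_KO_2370 was inside the sham range, and the difference was 0.97 ± 0.33 (adjusted p = 0.0382).

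The other 4 members did not pass the test in this comparison. Cry1 averaged 5.97 ± 3.27 FPKM in BDL_KO livers and 10.3 ± 2.91 FPKM in Sham_KO livers (SD, n = 5 each), a log2 difference of -0.89 ± 0.35 (limma adjusted p = 0.0689). Cry1 passed with library type as a covariate (-0.99, adjusted p = 0.0289) and without 1 of Sham_KO_2350, BDL_KO_2248, BDL_KO_2370 or BDL_KO_2371 (adjusted p from 0.0400 to 0.0463). Per2 averaged 4.29 ± 2.07 FPKM in BDL_KO livers and 2.16 ± 0.966 FPKM in Sham_KO livers (0.80 ± 0.33, adjusted p = 0.0787, and 0.0221 without BDL_KO_2365). Per1 differed by 0.90 ± 0.49 (adjusted p = 0.189). Nr1d1 averaged 7.74 ± 7.45 FPKM in BDL_KO livers and 4.33 ± 2.85 FPKM in Sham_KO livers, with a difference of 0.23 ± 0.63 (adjusted p = 0.828).

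Without BDL_KO_2359 and BDL_KO_2248, 2 of the 10 genes were called, both lower, where 37.0% of all tested genes were. Those were Clock and Npas2, and the values of the 4 genes that lost the call were -0.78 for Arntl (limma adjusted p = 0.0567), 1.11 for Per3 (0.0850), 1.62 for Dbp (0.116) and 0.53 for Nr1d2 (0.242). Nr1d2 also missed the threshold without 1 of Sham_KO_2349, Sham_KO_2352, Sham_KO_2353, BDL_KO_2359, BDL_KO_2365 or BDL_KO_2248, with adjusted p from 0.0562 to 0.0876, and with no filter (0.0783) or only the groups compared (0.0601). Dbp did so without 1 of Sham_KO_2347, Sham_KO_2349, Sham_KO_2350, Sham_KO_2353 or BDL_KO_2359 (adjusted p from 0.0540 to 0.0800), and with no filter (0.0698) or a pseudocount of 1 (0.0561). Under TPM scaling, which moved the median of all genes by 0.15, 4 were called higher and 1 lower in place of 3 and 3, since Arntl (adjusted p = 0.0956) and Clock (0.0742) missed the threshold and Per2 (0.0475) passed it. Without BDL_KO_2371, which is high in blood markers, 7 of the 10 were called, with Cry1 the gene gained (limma adjusted p = 0.0452). Cry1 was also gained without BDL_KO_2370 (0.0400), whose adipose, pancreas and blood markers summed to 222.9 FPKM, against 1127 FPKM in BDL_KO_2371. The part of blood in this gain was not tested. Leaving out 1 library at a time gave 4 to 7 of the 10, and 2614 to 4096 of all tested genes. In the voom test Per3 (0.0692) and Dbp (0.129) missed the threshold. The summed hepatocyte markers fell to a median of 34620 FPKM in BDL_KO livers, against 58980 FPKM in Sham_KO livers, and cholangiocyte markers had a median sum of 332.1 FPKM in BDL_KO livers, against 28.11 FPKM in Sham_KO livers. Their part in the clock results was not tested, and in whole liver fewer cells of a type and less RNA per cell cannot be told apart.

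**Figure D2:**
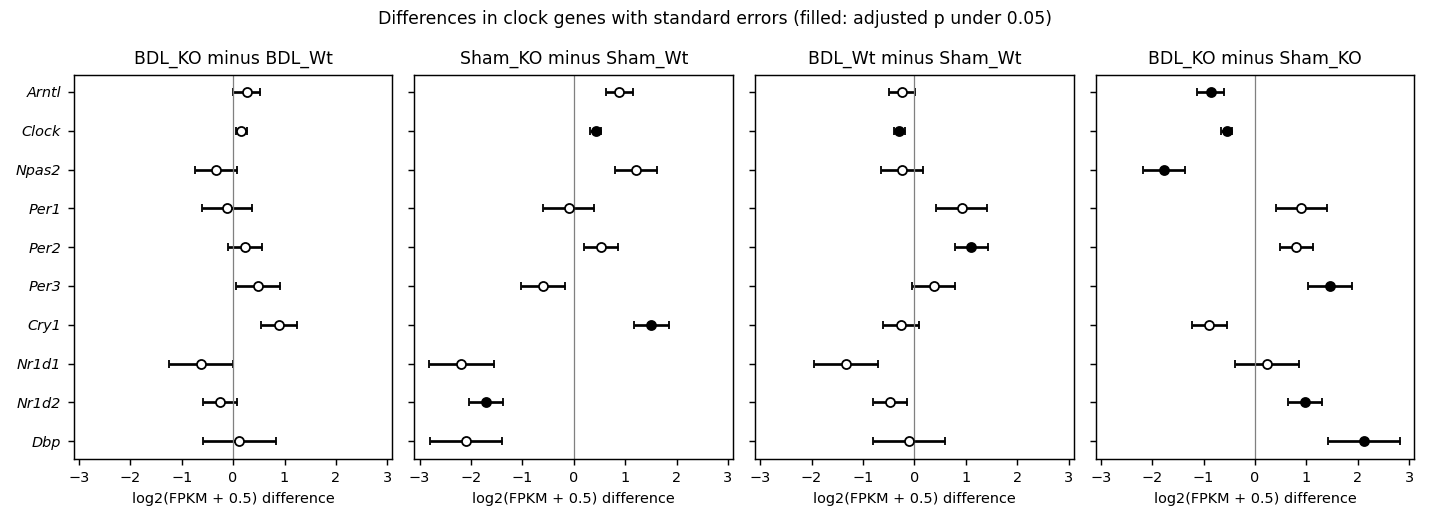
Log2(FPKM + 0.5) differences of the 10 clock genes with standard errors in 4 comparisons, knockout minus wild type and ligated minus sham, from 1 limma fit over 20 libraries. Filled points had an adjusted p under 0.05, which holds for 0 genes between BDL_KO and BDL_Wt, 3 between Sham_KO and Sham_Wt, 2 between BDL_Wt and Sham_Wt and 6 between BDL_KO and Sham_KO.

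In wild-type livers 2 of the 10 clock genes were called after ligation, a share below the 35.6% of all tested genes that were called. Per2 rose and Clock fell in BDL_Wt livers relative to Sham_Wt livers. Per2 was the only member whose groups did not overlap, where 31.8% of all tested genes did not overlap. The median log2 difference of the 10 was -0.24, against -0.02 over all tested genes.

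Per2 had 2.96, 5.77, 2.11, 5.17 and 1.84 FPKM in BDL_Wt livers, against 0.936 to 1.497 FPKM in Sham_Wt livers. The lowest ligated library stood above the highest sham library, and the log2 difference was 1.11 ± 0.33 (limma adjusted p = 0.0124, from 0.0023 to 0.0391 over 19 other settings). Clock had 3.07, 2.72, 3.84, 2.89 and 3.62 FPKM in BDL_Wt livers, against 3.06 to 4.91 FPKM in Sham_Wt livers. The ranges overlapped, and the difference of -0.29 ± 0.11 (adjusted p = 0.0409) was lost without any of Sham_Wt_2223, Sham_Wt_2224, Sham_Wt_2228, BDL_Wt_2233, BDL_Wt_2235 or BDL_Wt_2237 (adjusted p from 0.0763 to 0.121). Under TPM scaling, which moved the median of all genes in this comparison by 0.27, the Clock difference was -0.00 (adjusted p = 0.983), leaving 1 gene higher and 0 lower in place of 1 and 1. Clock also missed the threshold without a filter (adjusted p = 0.0755) and with the 10 wild-type libraries alone in the fit (0.0821), where Nr1d1 passed it (0.0188).

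Per1 averaged 7.89 ± 2.27 FPKM in BDL_Wt livers and 4.48 ± 2.54 FPKM in Sham_Wt livers (SD, n = 5 each). Its log2 difference was 0.92 ± 0.49 (limma adjusted p = 0.158), and 1.14 (adjusted p = 0.0175) with the library type, Xist-carrying or Y-carrying, as a covariate. Nr1d1 averaged 8.42 ± 4.58 FPKM in BDL_Wt livers and 20.1 ± 6.99 FPKM in Sham_Wt livers. Its difference was -1.33 ± 0.63 (adjusted p = 0.108), and -1.56 (adjusted p = 0.0286) with that covariate, under which 4 of the 10 genes were called, where 36.7% of all tested genes were. Arntl (-0.24 ± 0.26), Npas2 (-0.24 ± 0.41), Per3 (0.37 ± 0.42), Cry1 (-0.27 ± 0.35), Nr1d2 (-0.47 ± 0.33) and Dbp (-0.10 ± 0.70) had adjusted p from 0.296 to 0.930. These values do not show that the genes did not differ. Hepatocyte markers, 4 of 8 called lower, had summed levels of 24070 to 33170 FPKM in BDL_Wt livers, against 46190 to 64430 FPKM in Sham_Wt livers. Cholangiocyte markers, 6 of 6 called higher, had sums of 223 to 610.1 FPKM in BDL_Wt livers, against 19.92 to 26.69 FPKM in Sham_Wt livers. Their part in the clock results was not tested here either.

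After ligation, no clock gene was called between knockout and wild-type livers. Limma called 0 of the 10, where 8.83% of all tested genes were called, and 1 had an unadjusted p under 0.05, where 24.6% of all tested genes did. The test on recovered fragments (voom) also called 0. No gene had groups that did not overlap, where 5.50% of all tested genes did. The median log2 difference of the 10 was 0.14, against 0.01 over all tested genes.

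Cry1 stood nearest to a call. It had 7.50, 3.14, 1.82, 9.20 and 8.17 FPKM in BDL_KO livers, against 1.85, 1.62, 3.31, 2.99 and 3.41 FPKM in BDL_Wt livers. BDL_KO_2248, BDL_KO_2370 and BDL_KO_2371, which carry Xist, lay above every wild-type library. The other 2, BDL_KO_2359 and BDL_KO_2365, which carry Y-linked transcripts, did not. The log2 difference was 0.89 ± 0.35 (limma adjusted p = 0.116), and without BDL_KO_2365 it was 1.21 (adjusted p = 0.0156). Without BDL_KO_2359 and BDL_KO_2248 the Cry1 difference was 0.93 (adjusted p = 0.190), and 0 of the 10 genes were called, where 6.60% of all tested genes were. The largest negative difference was that of Nr1d1, with 5.49, 15.9, 15.4, 1.21 and 0.736 FPKM in BDL_KO livers, against 10.9, 13.8, 2.87, 10.1 and 4.46 FPKM in BDL_Wt livers (-0.63 ± 0.63, adjusted p = 0.595). The BDL_KO range enclosed all BDL_Wt values, with 2 libraries near the top, 2 near the bottom and 1 between. Those near the top were the Y-carrying BDL_KO_2359 and BDL_KO_2365, so Nr1d1 and Cry1 both divided by library type within BDL_KO livers. Under TPM scaling, which moved the median of all genes by -0.24, the differences of Clock, Per2 and Dbp changed sign.

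The interaction, the ligation effect in knockout livers minus that in wild-type livers, was called for 0 of the 10 genes by limma, where 0.377% of all tested genes were called, and for 0 by voom. An unadjusted p under 0.05 was reached by 3 of the 10, where 12.6% of all tested genes reached it. Those were Nr1d2 (1.44 ± 0.47, adjusted p = 0.198), Npas2 (-1.54 ± 0.57, adjusted p = 0.250) and Dbp (2.22 ± 0.99, adjusted p = 0.360). Without BDL_KO_2359 and BDL_KO_2248 these were 1.00 (adjusted p = 0.316), -1.09 (0.407) and 1.72 (0.469), and 0 of the 10 were called, where 1.27% of all tested genes were. Genes called after ligation in knockout livers and not in wild-type livers are therefore not shown to differ in their response.

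Clock genes varied widely between libraries of the same group. The pooled within-group SD on the log2 scale was 1.2 for Dbp, 1.07 for Nr1d1, 0.838 for Per1, 0.719 for Per3, 0.689 for Npas2 and 0.592 for Cry1, against a median of 0.247 over all tested genes. These 6 were at or above the 90th percentile of tested genes, and the first 3 at or above the 95th. Nr1d2 (0.564), Per2 (0.553) and Arntl (0.433) followed, and Clock (0.165) was below the median. Dbp, Npas2 and Per3 had lowest levels of 0.0647, 0.0920 and 0.146 FPKM, while Per1 had at least 1.14 FPKM in every library.

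The spread was uneven over the groups. For Dbp it was 1.06 in BDL_KO, 1.87 in BDL_Wt, 0.320 in Sham_KO and 1.03 in Sham_Wt livers. The 0.5 added before the log narrows this SD at the low levels of Sham_KO livers. In FPKM the highest Dbp value was 7.55 times the lowest in Sham_KO and 7.66 times in BDL_KO livers. Dbp had 2.28, 10.0, 0.312, 10.3 and 0.287 FPKM in BDL_Wt livers, and Per3 had 0.888, 2.63, 0.146, 3.44 and 0.195 FPKM in the same libraries. BDL_Wt_2235 and BDL_Wt_2237 were high for both genes and BDL_Wt_2236 and BDL_Wt_2240 low for both. Npas2, with 0.909, 0.208, 1.98, 0.113 and 2.00 FPKM in BDL_Wt livers, ran the other way. Arntl, with 2.12, 0.979, 2.99, 0.785 and 3.23 FPKM, had the same order of libraries as Npas2, and BDL_Wt_2233 lay between the pairs for each of the 4 genes. Nr1d2 had 10.3, 17.0, 4.74, 14.0 and 5.50 FPKM in these libraries and followed Dbp and Per3. Each pair held 1 Xist-carrying and 1 Y-carrying library.

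A difference summarises this, as a description chosen with these values known. It is the mean log2 level of Arntl, Clock and Npas2 minus that of Nr1d1, Nr1d2, Per3 and Dbp. The former are activator genes and the latter are repressor and output genes. The difference ran from -2.34 to 0.18 in BDL_KO, -2.69 to 0.94 in BDL_Wt, 0.96 to 1.75 in Sham_KO and -1.88 to -0.28 in Sham_Wt livers. The lowest BDL_KO values were those of BDL_KO_2359 (-2.34) and BDL_KO_2248 (-1.27), the libraries low in cholangiocyte markers. The other BDL_KO libraries ran from -0.49 to 0.18. Sham_KO libraries were the most alike on this scale (SD 0.309) and BDL_Wt libraries the least (SD 1.76). Dbp and Per3 reached at most 0.488 and 0.503 FPKM in Sham_KO livers, where the 0.5 added before the log narrows their part of the SD. The BDL_Wt values were -0.98, -2.67, 0.94, -2.69 and 0.75.

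**Figure D3:**
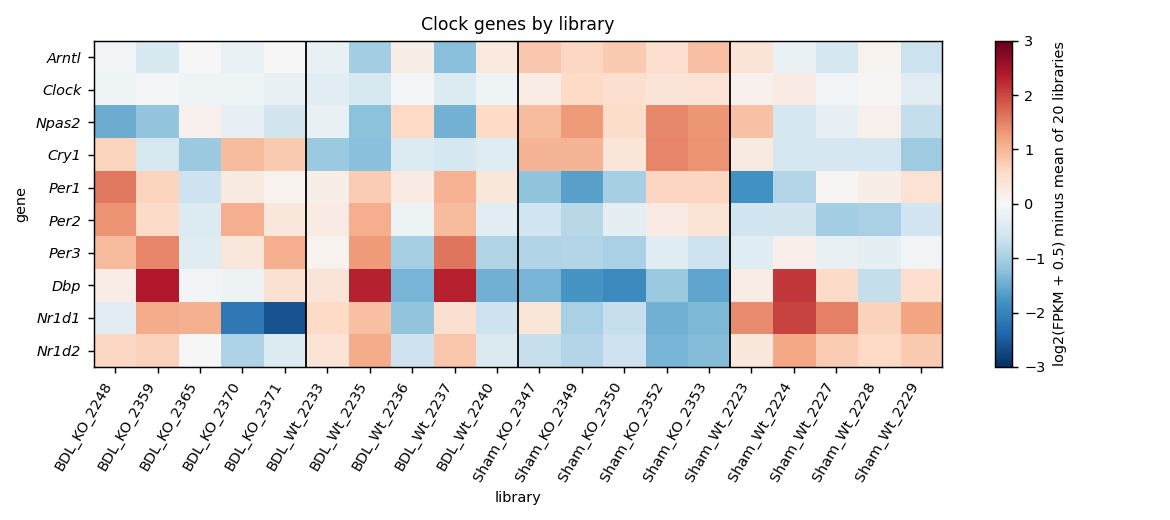
Log2(FPKM + 0.5) of each clock gene (rows) in each library (columns, by group), minus the gene's mean over 20 libraries, with red for higher and blue for lower values. In Sham_KO columns Arntl, Clock, Npas2 and Cry1 are red and Dbp and Nr1d2 blue, and BDL_Wt_2235 and BDL_Wt_2237 are the reverse of BDL_Wt_2236 and BDL_Wt_2240 for Arntl, Npas2, Per3 and Dbp.

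**Figure D4:**
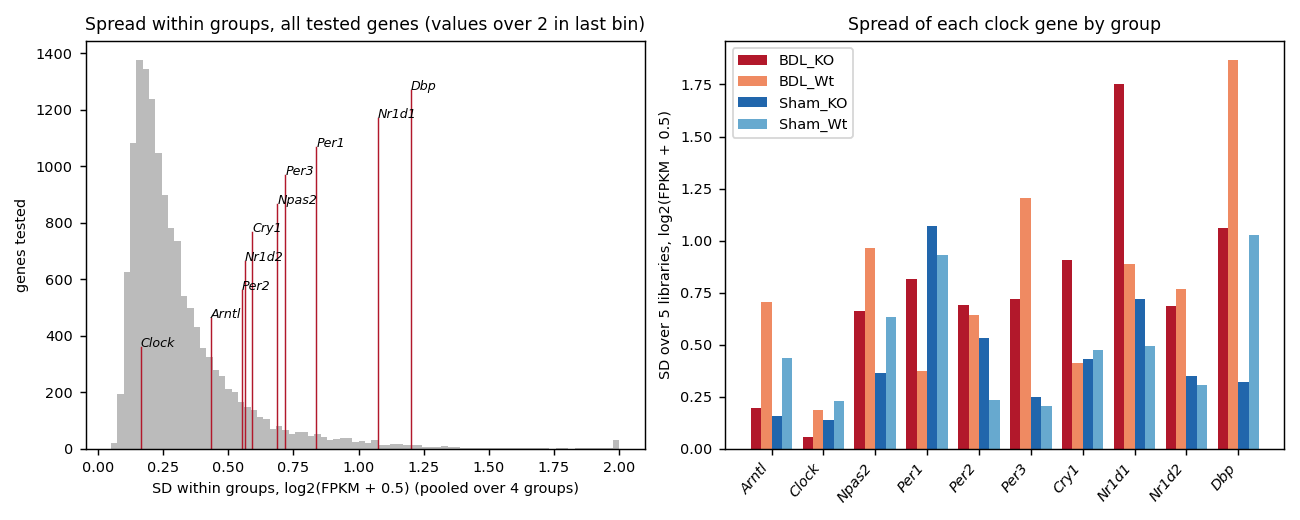
Left, the pooled within-group SD of log2(FPKM + 0.5) of all tested genes as a histogram, with clock genes marked by lines whose heights carry no value. Right, bars give the SD of each clock gene over the 5 libraries of each group. Dbp (1.2) and Nr1d1 (1.07) lie far to the right of the median of 0.247, and Clock (0.165) to its left.

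Per1 divided by another property of the libraries. The comparison of Xist-carrying with Y-carrying libraries was added after the values were seen, so it describes these libraries. In sham livers Per1 had 5.43 to 8.48 FPKM in the 5 Xist-carrying libraries, against 1.14 to 2.59 FPKM in the 5 Y-carrying libraries, in both genotypes and without overlap. The log2 difference was 1.74 ± 0.31 (limma adjusted p = 0.00506), and the call held in all 16 other settings (adjusted p up to 0.0471). Per1 alone of the 10 genes was called, where 2.21% of all tested genes were. In ligated livers Per1 had 5.64 to 16.7 FPKM in Xist-carrying libraries, against 3.195 to 9.24 FPKM in Y-carrying libraries, with overlap (0.46 ± 0.31, adjusted p = 1).

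Noct, which encodes the rhythmic enzyme nocturnin, divided in the same way in sham livers, with 3.31 to 6.17 FPKM in Xist-carrying libraries, against 0.487 to 2.63 FPKM in Y-carrying libraries (1.61 ± 0.31, limma adjusted p = 0.00983). Of 9 glucocorticoid-responsive genes 3 were called between library types in sham livers, all higher, where 2.21% of all tested genes were called. The list includes Per1, whose values were seen before this comparison was added, so its call adds no support to the count. Apart from Per1, only the metallothionein genes Mt1 (4.06 ± 0.75, adjusted p = 0.00665) and Mt2 (3.24 ± 0.53, adjusted p = 0.00223) were called. Glucocorticoids and zinc induce both. Fkbp5 (1.53), Tsc22d3 (0.79), Tat (0.41), Sgk1 (0.34), Pck1 (0.09) and Zbtb16 (-0.07) had adjusted p from 0.178 to 0.968. In the same libraries Elovl3 (-6.20 ± 0.51, adjusted p = 2.22e-06) and Hsd3b5 (-4.78 ± 0.50, adjusted p = 2.6e-05), which are known as male-enriched genes of mouse liver, were lower. In ligated livers limma called 0 of the 10 clock genes between library types, where 0.263% of all tested genes were called, and 2 had an unadjusted p under 0.05, where 4.56% of all tested genes did. Those were Nr1d1 (-1.48 ± 0.46, adjusted p = 0.578) and Cry1. Cry1 had 2.99 to 9.20 FPKM in Xist-carrying ligated libraries, against 1.62 to 3.31 FPKM in Y-carrying ones (1.03 ± 0.21, adjusted p = 0.0708, and 0.0257 without BDL_Wt_2236).

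A list of 16 further clock loop genes, of which Arntl2 and Bhlhe41 did not pass the filter, was read in the same comparisons. Between Sham_KO and Sham_Wt livers 1 of the 14 tested was higher and 0 lower (2.97% of all tested genes were called), and the list's median log2 difference was 0.00, against 0.01 over all tested genes. That gene was Nfil3, which encodes a D-box-binding repressor, at 30.7 ± 4.94 FPKM in Sham_KO livers and 13.9 ± 5.71 FPKM in Sham_Wt livers (1.18 ± 0.27, limma adjusted p = 0.0252). Between BDL_KO and Sham_KO livers 3 were higher and 0 lower, below the 25.1% of all tested genes that were called (median 0.10, against -0.01). They were Bhlhe40, an E-box-binding repressor (0.98 ± 0.24, adjusted p = 0.00578), Tef, a D-box-binding activator related to Dbp (1.30 ± 0.45, adjusted p = 0.0427), and the casein kinase gene Csnk1e (0.30 ± 0.10, adjusted p = 0.0351). Without BDL_KO_2359 and BDL_KO_2248, 2 were higher (Bhlhe40, 1.01, and Csnk1e, 0.41) and 2 lower (Nfil3, -0.77, and Hlf, -0.60), and Tef was at 0.79 (adjusted p = 0.231).

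Between BDL_Wt and Sham_Wt livers 2 of the 14 were higher and 2 lower, below the 35.6% of all tested genes that were called (median 0.06, against -0.02). Csnk1e, whose product phosphorylates PER proteins, had 2.26 ± 0.226 FPKM in BDL_Wt livers and 1.03 ± 0.0454 FPKM in Sham_Wt livers (0.85 ± 0.10, limma adjusted p = 5.6e-06), and Csnk1d rose by 0.28 ± 0.08. Hlf, another D-box-binding activator (-0.80 ± 0.22), and Fbxl21, which encodes a ubiquitin ligase subunit that acts on CRY proteins (-0.91 ± 0.22), fell. Between BDL_KO and BDL_Wt livers 0 were higher and 1 lower, near the 8.83% of all tested genes that were called (median 0.18, against 0.01). That was Csnk1e (-0.50 ± 0.10, adjusted p = 0.00408, and -0.39, adjusted p = 0.0323, without BDL_KO_2359 and BDL_KO_2248). The interaction was called for 0 of the 14 by limma, with and without those libraries, and 3 were at an unadjusted p under 0.05, where 12.6% of all tested genes were.

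Of 20 known rhythmic output genes of mouse liver, all tested, 2 were higher and 0 lower in Sham_KO livers than in Sham_Wt livers, where 2.97% of all tested genes were called (median log2 difference 0.27, against 0.01 over all tested genes). Cdkn1a, a cell cycle inhibitor gene that NR1D1 represses in liver, had 17.4 ± 6.56 FPKM in Sham_KO livers and 2.52 ± 0.646 FPKM in Sham_Wt livers (2.51 ± 0.44, limma adjusted p = 0.00499). Slc45a3 was higher by 0.72 ± 0.19 (adjusted p = 0.0484). Between BDL_KO and Sham_KO livers 3 were higher (Wee1, Nampt and Tspan4) and 3 lower (Hsd3b5, Insig2 and Elovl3), 6 of 20, where 25.1% of all tested genes were called, with a median of 0.05, against -0.01. Elovl3 missed the threshold without BDL_KO_2359 and BDL_KO_2248 (-4.80, adjusted p = 0.0655), and the other 5 kept the call. Wee1, a kinase gene with E-boxes that restrains mitosis, had 2.65 ± 1.35 FPKM in BDL_KO livers and 0.599 ± 0.204 FPKM in Sham_KO livers (1.41 ± 0.30, adjusted p = 0.0025, and 1.78 without those libraries). Between BDL_Wt and Sham_Wt livers 4 were higher (Cdkn1a, Wee1, Nampt and Tspan4) and 2 lower (Hsd3b5 and Upp2), 6 of 20, where 35.6% of all tested genes were called, with a median of 0.14, against -0.02. Wee1 had 3.49 ± 1.71 FPKM in BDL_Wt livers and 0.767 ± 0.237 FPKM in Sham_Wt livers (1.57 ± 0.30, adjusted p = 0.000522).

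Between BDL_KO and BDL_Wt livers limma called 0 of the 20 output genes, where 8.83% of all tested genes were called. An unadjusted p under 0.05 was reached by 5, near the 24.6% of all tested genes (median -0.02, against 0.01). When BDL_KO_2359 and BDL_KO_2248 were left out, 1 was called, Nampt (-0.74, adjusted p = 0.0296), where 6.60% of all tested genes were. The interaction was called for 1 of the 20, where 0.377% of all tested genes were called, and 1.27% without those libraries. That gene was Cdkn1a (-3.05 ± 0.62, limma adjusted p = 0.0355, and -3.003, adjusted p = 0.0126, without those libraries). Cdkn1a had 22.5 ± 17.0 FPKM in BDL_KO livers and 29.1 ± 14.0 FPKM in BDL_Wt livers. Of the 9 glucocorticoid-responsive genes 1 was called between Sham_KO and Sham_Wt livers, where 2.97% of all tested genes were called. Sgk1 had 4.75 ± 1.12 FPKM in Sham_KO livers and 9.36 ± 2.31 FPKM in Sham_Wt livers (-0.90 ± 0.20, adjusted p = 0.0175), with overlapping ranges. After ligation 2 of the 9 were higher and 0 lower in BDL_KO livers than in Sham_KO livers (median 0.61, against -0.01), and 3 were higher and 0 lower in BDL_Wt livers than in Sham_Wt livers (median 0.92, against -0.02). These shares are below the 25.1% and 35.6% of all tested genes that were called. Mt1 and Mt2 were called in both comparisons and Zbtb16 in the second (1.68 ± 0.31, adjusted p = 0.000342). In knockout livers without BDL_KO_2359 and BDL_KO_2248, Mt1 missed the threshold (2.72, adjusted p = 0.0911) and Mt2 passed it (3.05, adjusted p = 0.0214). Between BDL_KO and BDL_Wt livers limma called 0 of the 9, where 8.83% of all tested genes were called. An unadjusted p under 0.05 was reached by 1, where 24.6% of all tested genes reached it.

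Genes whose level followed the activator gene difference defined above within groups were ranked over 20 libraries after subtracting each group's mean, among 10074 genes. The libraries share their depth and their preparation with the clock genes themselves, so the correlations are descriptions. The 5 highest positive Pearson values were those of Oasl2 (0.85), N4bp1 (0.84), Tmem165 (0.82), Clpx (0.81) and Lnx2 (0.81), and the 5 most negative were those of Tef (-0.86), Slc2a2 (-0.82), Ppif (-0.82), Jade1 (-0.81) and Slc38a3 (-0.79). Without BDL_Wt_2236 and BDL_Wt_2237, the libraries farthest from their group, the values of Oasl2 and Tef were 0.82 and -0.79. No correlation is given without BDL_KO_2359 and BDL_KO_2248. These libraries had the highest Tef (22.95 and 24.5 FPKM) and the lowest Oasl2 (0.576 and 1.19 FPKM) of BDL_KO livers. Tef, Slc2a2, which encodes the glucose transporter GLUT2, and Slc38a3, a glutamine transporter gene, were higher in BDL_Wt_2235 and BDL_Wt_2237, the BDL_Wt libraries high for Dbp, than in the other 3 BDL_Wt libraries. Tef had 9.02, 18.4, 3.38, 22.1 and 3.097 FPKM in BDL_Wt livers, in the order of the libraries used for Dbp above. Oasl2, an interferon-induced gene, had 16.1, 10.7, 25.8, 10.3 and 33.4 FPKM in those libraries and ran the other way. Of the clock genes outside the difference, Cry1 had 0.42, Per1 -0.27 and Per2 -0.49.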

How the data were processed

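PolyA RNA of 20 liver libraries was used, 5 in each of 4 groups taken from the sample titles. The tools, per the submitters' processing notes and with no stated order, included HISAT2 2.0.5 and featureCounts 1.5.0-p3, besides fastp, CASAVA 1.8 and DESeq2 1.20.0. The notes name GRCm38 and mm10 as builds. No annotation release is given. The authors deposited FPKM values per gene, already scaled between libraries, and the fragments assigned in a library came to 86.9 to 134% of its scaled size. Multiplied by GENCODE M21 exonic lengths, 98.1 to 98.5% of low values per library were whole fragments (tolerance 0.02), which gave depth and the fragment numbers quoted.

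Values were tested as log2(FPKM + 0.5) in the 14059 genes that reached 0.5 FPKM in 5 or more libraries, with limma 3.58.1 in R 4.3.3 (1 mean per group, moderated variances with trend, robust), and Benjamini-Hochberg adjustment over all genes tested at 0.05. Fold changes on this scale understate those of low genes, and errors given with log2 differences are SE. The script was tested on simulated data with 200 changed genes. Alternatives were pseudocounts of 0.1 and 1, no filter or 1 FPKM, TPM, quantile normalization, library type as a covariate, only the compared groups, each library left out, and the data without BDL_KO_2359 and BDL_KO_2248. The voom test on whole fragments of 13958 genes, the comparison of library types, with a mean per group and type, and the values of listed genes without those libraries were added after the data were seen.

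The members and gene lists were chosen with earlier results of these data known. The 10 members and Tmem173 are named throughout, of each list up to 4 called genes per comparison, and of likeness 5 genes of each sign. Promoters are RefSeq windows. Python 3.11.15, pandas 2.3.3, numpy 2.4.6, scipy 1.17.1 and matplotlib 3.10.9 were used.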

Additional observations from a re-analysis of the deposited data

Results flagged for a closer look

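In 40 sets of 5 libraries, 1 for each clock gene and group, a highest or lowest library was marked where its gap to the next exceeded 0.71 of the set's range, which chance gives in about 1 of 20 sets. Of the 3 marked, 2 were for Dbp and 1 for Nr1d1. Dbp had 10.79 FPKM in BDL_KO_2359, against 2.419 FPKM in the next BDL_KO library, and this library was also low in cholangiocyte markers. In Sham_Wt_2224 Dbp had 8.812 FPKM, against 2.668 FPKM in the next Sham_Wt library. Nr1d1 had 9.244 FPKM in Sham_KO_2347, against 4.213 FPKM in the next Sham_KO library.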

How the results depend on the processing

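No paired analysis was possible because the groups share no library numbers. The cause of the changes listed here was not tested. Members called between Sham_KO and Sham_Wt numbered 3, and 1 with no filter, 1 with TPM and 7 with only the groups compared, and all genes called numbered 418, and 208 with no filter, 208 with TPM and 821 with only those groups. Between BDL_Wt and Sham_Wt 2 members were called, and 1 with no filter, 1 with TPM and 4 with library type as a covariate. Between BDL_KO and Sham_KO 6 members were called, and 2 without BDL_KO_2359 and BDL_KO_2248, and 3534 genes, and 1694 with only the groups compared. Between BDL_KO and BDL_Wt 1241 genes were called, and 1875 with TPM and 283 with only the groups compared. The interaction was called for 53 genes, and for 9 with no filter, 11 with TPM, 178 without BDL_KO_2359 and BDL_KO_2248 and 22 with voom. Leaving out 1 library gave 0 to 1 members and 618 to 2061 genes between BDL_KO and BDL_Wt, 1 to 4 members and 155 to 341 genes between Sham_KO and Sham_Wt, 1 to 2 members between BDL_Wt and Sham_Wt, 8 to 151 genes for the interaction, 186 to 268 genes between library types in sham livers and 0 to 1 members between them in ligated livers.

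Log2 differences that changed sign were all of genes not called. Under TPM they were Clock (-0.092), Per2 (-0.029) and Dbp (-0.081) between BDL_KO and BDL_Wt, and Arntl (0.021), Cry1 (0.0092) and Dbp (0.12) between BDL_Wt and Sham_Wt. Dbp was at 0.0047 there with a pseudocount of 1. Without BDL_KO_2359 and BDL_KO_2248, Npas2 (0.11), Per2 (-0.021) and Dbp (-0.37) between BDL_KO and BDL_Wt and Nr1d1 (-0.42) between BDL_KO and Sham_KO turned. With library type as a covariate Per1 was at 0.12 between Sham_KO and Sham_Wt. Leaving out 1 library moved Per1 from -0.41 to 0.14 and Dbp from -0.34 to 0.60 between BDL_KO and BDL_Wt, and Per1 from -0.45 to 0.18 between Sham_KO and Sham_Wt. Likewise Npas2 ran from -0.47 to 0.037 and Dbp from -0.58 to 0.37 between BDL_Wt and Sham_Wt, Nr1d1 from -0.20 to 0.74 between BDL_KO and Sham_KO, Per1 from -0.31 to 0.33 for the interaction, and Cry1 from -0.18 to 0.22 between library types in sham livers. No called difference changed sign in these settings. At 3 to 23 fragments of Dbp per Sham_KO library, its level there is set by few reads.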
